A study of Homo sapiens with 16 samples.

Results

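The comparison described here set 2R6R-HNK against its mirror-image form 2S6S-HNK in HMC3 cells that received no estradiol (E2). Hydroxynorketamine (HNK) is a product of ketamine metabolism, and the pair are enantiomers with opposite configuration at both stereocentres that their names give. The comparison used the 4 libraries whose labels name either compound without E2, 2 for each, out of 16 RNA-seq libraries in 8 conditions of 2. Each compound was given at 400 nM for 24 h, vehicle cells received neither drug nor E2, and the other conditions were ketamine at 400 nM, E2 at 0.1 nM, and each of the 3 drugs together with E2. All cells were the same established human line, described as microglial, in medium free of serum and phenol red during treatment. The question was whether compounds that differ only in handedness leave the transcriptome of these cells in the same state.

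Microglia are the resident immune cells of the brain, and ketamine metabolites are studied for actions on mood that do not run through the anaesthetic target of the parent drug. Proteins are themselves handed and can bind one mirror form of a small molecule and not the other. Among genes of at least 5 CPM (counts scaled to library size), the largest differences in favour of 2R6R-HNK concerned zinc. Cells hold zinc in check with metallothioneins, small cysteine-rich proteins that bind zinc and copper, with exporters of the SLC30 family and with importers of the SLC39 family. The transcription factor MTF1 senses zinc and acts through short DNA sequences called metal response elements.

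The 2R6R-HNK libraries held 78275204 and 58121307 counts and the 2S6S-HNK libraries 55300614 and 60533798, within a range of 55300614 to 81646165 over the 16. Replicates of 2R6R-HNK differed by 2.68 times the variance expected if each count were an independent draw. Those of 2S6S-HNK differed by 4.34 times, the highest of the 8 conditions. Whether the counts were independent draws was not tested. Among tested genes with 1 to 9 counts, 59.6% to 65.0% of the counts were even numbers in these 4 libraries, against 49.2% to 50.0% among genes with at least 500. The label of the line was checked against its markers. Of 15 microglial markers 11 lay under 1 CPM in all 16 libraries, and CX3CR1, TYROBP, C1QA and C1QB had no count in any of the 4 libraries, although the lysosomal gene CD68 was expressed. Some fibroblast and mural markers were abundant, with COL1A1 at 3844 to 5322 CPM and VIM at 1255 to 1537 CPM over the 16 libraries. Others were low, with COL3A1 at no more than 0.0767 CPM, RGS5 at 0.845 to 1.96, ACTA2 at 1.48 to 2.73 and PDGFRA at 1.19 to 3.18. The 9 fibroblast and mural markers summed to 7296 to 7316 CPM in 2R6R-HNK and 6316 to 6613 CPM in 2S6S-HNK, and the 15 microglial markers to 70.1 to 73.7 and 84.1 to 90.2 CPM. Most of the fibroblast and mural sum was COL1A1 and VIM. The part of these markers in the results was not tested.

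Many of the called genes shared a pattern across the 16 libraries. Both 2S6S-HNK libraries lay nearer to an E2+2R6R-HNK library (distances of 49.6 and 47.6 on log2 CPM) than to each other (50.9), while the 2R6R-HNK libraries lay nearest to each other (45.4). Of the genes tested, 4.08% had all 6 libraries of 2S6S-HNK, E2+2R6R-HNK and E2+2S6S-HNK above the other 10 libraries, and 3.43% had all 6 below. Among the called genes defined in the next paragraph these shares were 44.6% of those higher in 2S6S-HNK and 29.4% of those higher in 2R6R-HNK. A called gene already has 2S6S-HNK above or below 2R6R-HNK, which is part of this split. A share above that of all genes was therefore partly fixed by the choice of genes, here and for the called genes named below. The study ran 8 libraries in each sequencing lane, and neither the lanes nor any other batch of single libraries are given in the sources used here. For such genes, a difference between the enantiomers and any other feature that these 6 libraries share cannot be told apart.

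The enantiomers left many small differences and few large ones. At an adjusted p under 0.05 in edgeR's quasi-likelihood test, 6959 of 16004 genes differed, which is 43.5%, with 3368 (21%) higher in 2R6R-HNK and 3591 (22.4%) higher in 2S6S-HNK. Requiring also a log2 fold change of 1 or more, which defines a called gene here, left 405 (2.53%), 163 higher in 2R6R-HNK (1.02%) and 242 higher in 2S6S-HNK (1.51%). DESeq2 on the 4 libraries gave 200 (86 and 114), and a filter of at least 10 counts in every library gave 252 (106 and 146). The median size of the log2 difference over all genes was 0.20, and for 12685 genes the 95% interval of the difference lay within 1 log2 unit of zero on both sides. In 68.1% of genes the 2 libraries of one compound did not overlap the 2 of the other. Passing the adjusted p was more common at higher levels. Of the 10324 tested genes with a mean of at least 5 CPM, 2938 passed as higher in 2R6R-HNK and 3002 as higher in 2S6S-HNK. The gene lists below were not matched for level, so 43.5% is a low background for lists of abundant genes. Most called genes were low, with medians of 0.604 CPM for those higher in 2R6R-HNK and 0.651 CPM for those higher in 2S6S-HNK, and 27 and 35 of them had a mean of at least 5 CPM. The called genes of both directions were richer in GC than the tested genes, with median exon GC contents of 54.8% and 53.5% against 48.7%. A correction for GC content and length kept 353 of the 405 calls with no change of sign. It covered only the 15358 genes with a GC value, which include 142 of the 163 and 232 of the 242 called genes. The remaining called genes were not in that fit and could not be kept. Across 15358 genes, which are not independent replicates and share the 4 libraries, the log2 difference and GC content had a Spearman correlation of 0.037.

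**Figure D1:**
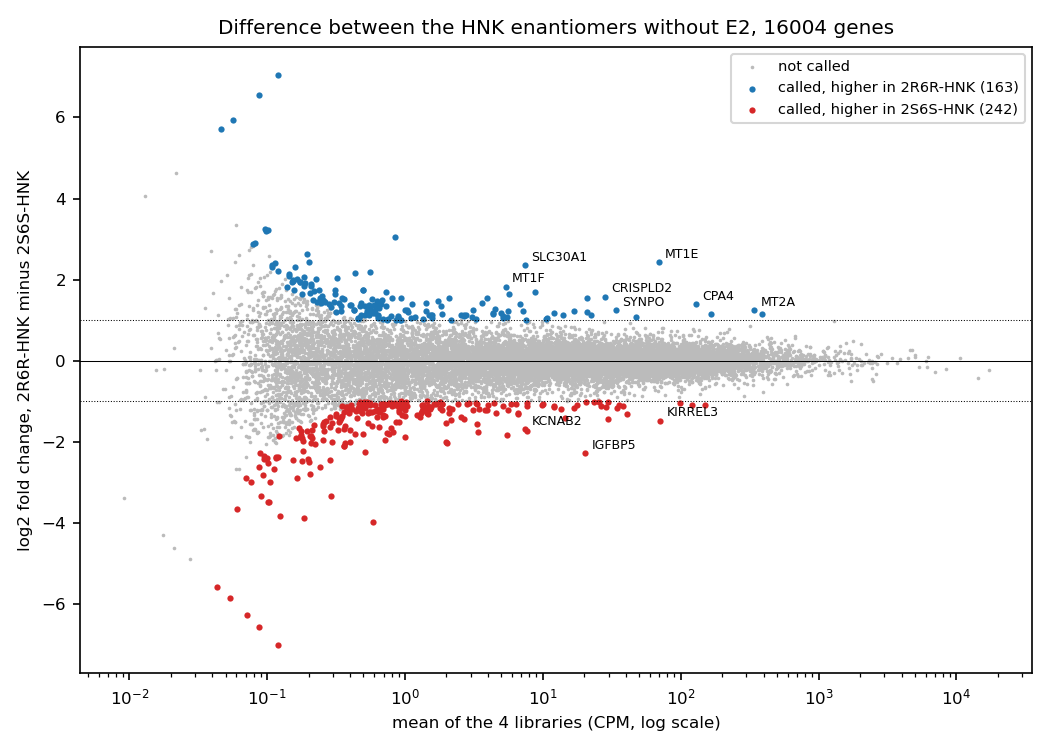
Each point is 1 of 16004 genes, with its mean over the 4 libraries in CPM on a log axis and its log2 fold change (2R6R-HNK minus 2S6S-HNK) on the vertical axis. The 163 blue and 242 red points are the called genes, most of which lie under 5 CPM, and MT1E and MT2A stand apart at high levels.

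Zinc handling genes differed in both directions, with 4 metallothioneins and the zinc exporter SLC30A1 higher under 2R6R-HNK and the zinc importer SLC39A10 higher under 2S6S-HNK. MT1E, a metallothionein, was at 115 and 120 CPM in the 2R6R-HNK libraries and at 21.8 and 21.5 CPM in the 2S6S-HNK libraries. This was 5.43-fold, a log2 difference of 2.44 (SE 0.045, edgeR adjusted p = 4.07e-40), and the vehicle libraries lay between the groups at 77 and 73.6 CPM. MT2A, the most abundant metallothionein here, was at 479 and 482 CPM under 2R6R-HNK against 199 and 202 CPM under 2S6S-HNK, with vehicle at 307 and 293 CPM. Its log2 difference was 1.26 (SE 0.028, edgeR adjusted p = 1.40e-36), and again vehicle stood between groups that did not overlap. MT1X was at 12.9 and 14.1 CPM and 4.29 and 3.99 CPM, and MT1F at 7.83 and 9.04 CPM and 2.3 and 2.43 CPM, in the same order of compounds. The log2 differences were 1.7 (SE 0.11) for MT1X and 1.83 (SE 0.13) for MT1F. All 4 metallothioneins were above vehicle under 2R6R-HNK, by log2 0.64 to 0.92, and below it under 2S6S-HNK, with log2 differences from vehicle of -0.58 for MT2A to -1.8 for MT1E. Both comparisons share the vehicle libraries.

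SLC30A1, the exporter that moves zinc out across the plasma membrane, was at 11.6 and 13.3 CPM under 2R6R-HNK and at 2.57 and 2.27 CPM under 2S6S-HNK. The log2 difference was 2.36 (SE 0.12, edgeR adjusted p = 7.73e-23). Here vehicle, at 13.4 and 13.3 CPM, sat with 2R6R-HNK, and only the 2S6S-HNK libraries were low. SLC39A10, an importer, showed the reverse arrangement, with 18.2 and 17.8 CPM under 2R6R-HNK, 40.4 and 38.6 CPM under 2S6S-HNK and 34.6 and 37.3 CPM in vehicle. Its log2 difference was -1.13 (SE 0.057, edgeR adjusted p = 1.97e-22), and 2R6R-HNK was the compound that stood away from vehicle.

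The 4 metallothionein genes lie together on the plus strand of chromosome 16 in GRCh37, the sequence of the hg19 build used for the counts. MT2A is at chr16:56642496-56643409, MT1E at chr16:56659387-56661024, MT1F at chr16:56691643-56694610 and MT1X at chr16:56716382-56718108. SLC30A1 is on the minus strand at chr1:211744910-211752503 and SLC39A10 on the plus strand at chr2:196440701-196602426. Metallothioneins are near-identical copies of each other, and counting only uniquely mapped pairs may divide their reads unevenly, so each one's level is less certain than their shared direction. The promoters below are shown to compare genes that were higher under 2R6R-HNK with the importer that went the other way, and those of MT1E and MT1F were not used here. Shown are the 250 bases before the start site from RefSeq on GRCh38.p14, a later build than that of the counts, on the gene's own strand. Capitals mark the letters of the metal response element, TGCACNC or TGCGCNC, on either strand, where matches may overlap.
MT2A, chr16:56608334-56608583, plus strand: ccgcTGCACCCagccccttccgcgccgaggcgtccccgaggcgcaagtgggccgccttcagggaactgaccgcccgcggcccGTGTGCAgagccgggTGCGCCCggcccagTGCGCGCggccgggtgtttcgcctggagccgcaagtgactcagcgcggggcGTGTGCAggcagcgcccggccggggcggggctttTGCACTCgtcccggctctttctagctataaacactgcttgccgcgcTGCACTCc
MT1X, chr16:56682220-56682469, plus strand: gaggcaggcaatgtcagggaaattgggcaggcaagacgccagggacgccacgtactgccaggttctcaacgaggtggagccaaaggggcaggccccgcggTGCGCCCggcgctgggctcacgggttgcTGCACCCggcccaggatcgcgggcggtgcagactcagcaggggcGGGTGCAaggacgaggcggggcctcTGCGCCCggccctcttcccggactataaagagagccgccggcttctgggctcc
SLC30A1, chr1:211579162-211579411, minus strand: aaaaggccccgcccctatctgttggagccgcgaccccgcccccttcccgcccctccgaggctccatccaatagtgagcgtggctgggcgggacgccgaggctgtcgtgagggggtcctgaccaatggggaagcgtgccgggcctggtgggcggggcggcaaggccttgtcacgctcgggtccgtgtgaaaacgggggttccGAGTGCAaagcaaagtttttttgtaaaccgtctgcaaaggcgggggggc
SLC39A10, chr2:195656708-195656957, plus strand: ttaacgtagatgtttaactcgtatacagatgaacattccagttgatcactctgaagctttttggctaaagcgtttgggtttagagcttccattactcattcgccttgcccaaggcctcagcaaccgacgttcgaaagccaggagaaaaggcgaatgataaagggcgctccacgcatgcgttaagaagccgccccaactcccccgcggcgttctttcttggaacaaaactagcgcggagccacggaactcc
MT2A held 7 matches, MT1X 4, SLC30A1 1 and SLC39A10 none. The promoter of INSIG1, a sterol gene that was higher in 2S6S-HNK (log2 -0.76), also held 4. At least 1 match was present in 24.7% of 27305 RefSeq promoters of this length and in 32.8% of the 11212 belonging to tested genes, so a single match is common. At least 4 matches were present in 0.366% and 0.482%. These are matches of letters and not measured binding.

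In the whole zinc list, of 28 tested genes 8 were higher in 2R6R-HNK, 6 were higher in 2S6S-HNK and 14 did not pass, or 50.0% passing against the 43.5% of all genes, and 7 were called, against 2.53% of all genes. The list was chosen with earlier results of these data known, so its share of calls is a description only. The list's median log2 difference was 0.06, against -0.01 over all genes tested. The zinc sensor MTF1 did not pass (mean 22.1 against 23.4 CPM, log2 -0.08, edgeR adjusted p = 0.308). The importers SLC39A1 and SLC39A3 were higher in 2R6R-HNK by 0.20 and 0.19, while SLC39A6 and SLC39A11 were higher in 2S6S-HNK, with log2 differences of -0.21 and -0.27, the last not passing in DESeq2 on the 4 libraries. The exporter SLC30A2 was called at a mean of 0.0466 CPM with no count in either 2S6S-HNK library, too few reads for a fold change. MT1A, MT1G and MT3, all under 0.5 CPM, did not pass.

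**Figure D2:**
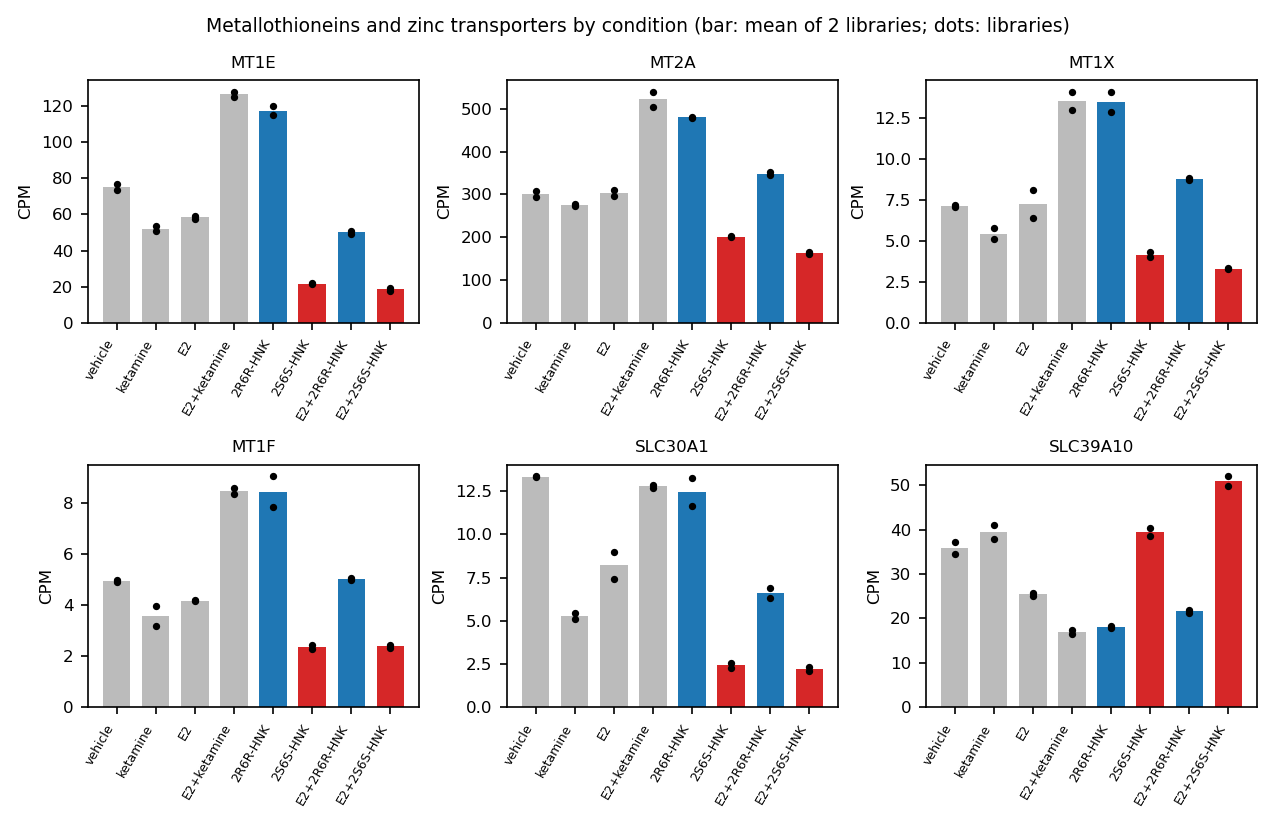
Levels of 4 metallothioneins, the exporter SLC30A1 and the importer SLC39A10 in CPM in each of the 8 conditions, with bars at the mean of 2 libraries and dots for the libraries. Blue marks conditions with 2R6R-HNK and red those with 2S6S-HNK, and in each panel blue and red separate both without and with E2.

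Given without E2, the enantiomers lay at or near opposite ends of the range of the zinc genes over all 8 conditions. E2+2R6R-HNK did not lie at the upper end for MT1E, which was below vehicle. Nor did it for SLC30A1, with a mean of 6.62 CPM against 13.3 in vehicle. MT1E was highest in E2+ketamine (mean 127 CPM, SD 2.26, n = 2) and 2R6R-HNK (118, SD 3.63). It followed in vehicle at 75.3, E2 at 58.5, ketamine at 52.1 and E2+2R6R-HNK at 50.1 CPM. It was lowest in 2S6S-HNK at 21.6 and E2+2S6S-HNK at 18.4 CPM. The libraries of ketamine and E2+2R6R-HNK overlapped, and those of the other neighbours did not. SLC39A10 ran from 17 CPM in E2+ketamine and 18 in 2R6R-HNK up to 50.9 CPM in E2+2S6S-HNK.

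The 12 genes with the largest log2 difference higher under 2R6R-HNK, among called genes of at least 5 CPM, were the 4 metallothioneins, SLC30A1 and 7 others. The 7 included the transcriptional inhibitors ID1 and ID3, the protease CPA4 and the cytochrome CYP1B1. ID1 and ID3 bind basic helix-loop-helix factors and keep them from DNA. ID3 was at 31.9 and 30.0 CPM under 2R6R-HNK, 10.2 and 10.9 CPM under 2S6S-HNK and 26.4 and 25.9 CPM in vehicle (log2 difference 1.55, SE 0.067, edgeR adjusted p = 6.89e-25). ID1 was at 7.98 and 9.13 CPM, 3.25 and 2.24 CPM and 7.81 and 8.59 CPM in the same order (log2 1.64, SE 0.13). In both genes 2R6R-HNK and vehicle were close and 2S6S-HNK was low. CPA4, a secreted carboxypeptidase, was at 184 and 191 CPM, 71.4 and 70.2 CPM and 282 and 290 CPM (log2 1.4, SE 0.032, edgeR adjusted p = 3.22e-36), so both compounds were below vehicle and 2S6S-HNK further below. CYP1B1, which oxidizes estradiol and many foreign compounds, was at 9.59 and 10.1 CPM, 3.56 and 3.87 CPM and 6.93 and 5.82 CPM (log2 1.4, SE 0.11). Its exons share 677 bases with the antisense gene CYP1B1-AS1, 96 with RMDN2 on the opposite strand and 69 with RMDN2-AS1 on the same strand, and whether the counting used strand is not stated.

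CRISPLD2, a secreted protein, and SYNPO, the actin-binding protein synaptopodin, were above vehicle under 2R6R-HNK and below it under 2S6S-HNK. CRISPLD2 was at 42.1 and 42.8 CPM under 2R6R-HNK, 14 and 14.4 under 2S6S-HNK and 25.5 and 26 in vehicle (log2 difference 1.58, SE 0.057). SYNPO was at 47.5 and 47.4, 18.9 and 21 and 26.9 and 26.4 CPM (log2 1.25, SE 0.055). EFCAB4A, a gene for an EF-hand protein, was at 10.4 and 9.9, 4.16 and 4.48 and 5.48 and 6.13 CPM (log2 1.23, SE 0.11). Of these 12 genes, 7 (ID1, ID3, CPA4, CYP1B1, CRISPLD2, SYNPO and EFCAB4A) had all 6 libraries of 2S6S-HNK, E2+2R6R-HNK and E2+2S6S-HNK below the other 10, and the 5 zinc genes did not.

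Among the genes higher under 2S6S-HNK, the same rule named 12. IGFBP5, which binds insulin-like growth factors, was at 34.2 and 33.3 CPM under 2S6S-HNK, 6.43 and 7.59 CPM under 2R6R-HNK and 8.88 and 7.6 CPM in vehicle. It was 4.85-fold higher under 2S6S-HNK, a log2 difference of -2.28 (SE 0.085, edgeR adjusted p = 1.98e-27), and 2R6R-HNK lay close to vehicle. KCNAB2, an auxiliary beta subunit of voltage-gated potassium channels, was at 11.8 and 11 CPM under 2S6S-HNK, 3.56 and 3.48 CPM under 2R6R-HNK and 1.49 and 1.83 CPM in vehicle (log2 -1.69, SE 0.12). Both compounds were above vehicle in this gene, 2S6S-HNK further. TNXB, the matrix protein tenascin X, was at 11.6 and 12.3, 3.67 and 3.45 and 2.58 and 1.95 CPM in that order (log2 -1.74, SE 0.11). Exons of KCNAB2 share 212 bases with NPHP4, and those of TNXB share 298 bases with CYP21A2, each on the opposite strand, and TNXB shares 71 bases with ATF6B on the same strand.

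KIRREL3 and SEMA5A, a cell adhesion protein and a semaphorin that both act in neuronal wiring, were among the more abundant of this group. KIRREL3 was at 101 and 108 CPM under 2S6S-HNK, 38.8 and 36.4 under 2R6R-HNK and 29 and 28.9 in vehicle (log2 -1.47, SE 0.043, edgeR adjusted p = 7.29e-32). SEMA5A was at 43.7 and 42.9, 16.2 and 15.8 and 12.2 and 12 CPM (log2 -1.43, SE 0.058). In both, 2R6R-HNK lay slightly above vehicle and 2S6S-HNK far above. The kinase CDK18 (58.6 and 57.7, 21.9 and 24.9 and 11.1 and 10.5 CPM, log2 -1.32) and the lipid transporter ABCA3 (19.6 and 22.3, 8.58 and 7.12 and 5.95 and 4.8 CPM, log2 -1.41) had the same order. The folate enzyme ALDH1L1 was at 7.26 and 8.28 CPM against 3.2 and 3.52 CPM (log2 -1.22). It also marks astrocytes, and the 6 astrocyte markers together summed to 9.60 to 10.2 CPM under 2S6S-HNK and 6.84 to 7.5 CPM under 2R6R-HNK, with AQP4 at no count. Most of that sum under 2S6S-HNK was ALDH1L1 itself, while SLC1A3, the other astrocyte marker above 1 CPM, was higher in 2R6R-HNK (3.37 and 3.38 against 1.90 and 1.49 CPM, edgeR adjusted p = 4.03e-06). The part of these markers in the result was not tested. Exons of KIRREL3 share 205 bases with KIRREL3-AS3, and those of ALDH1L1 share 251 with ALDH1L1-AS1 and 233 with ALDH1L1-AS2, all antisense. DNHD1, FBLN7 and FAM196B completed the 12, with log2 differences of -1.3, -1.3 and -1.19.

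IFITM1, an interferon-induced protein that restricts virus entry, stood second by size, and its size rested on 1 library. It was at 3.96 and 13.1 CPM in the 2S6S-HNK libraries, 2.03 and 2.82 CPM under 2R6R-HNK and 1.37 and 1.06 CPM in vehicle (log2 -1.84, SE 0.24, edgeR adjusted p = 1.48e-08). Without replicate 2 of 2S6S-HNK the log2 difference was -0.72 and still passed (edgeR adjusted p = 0.00529) but was no longer a call, and DESeq2 on the 4 libraries gave an adjusted p of 0.0753. The remaining 11 of the 12 genes higher in 2S6S-HNK had all 6 libraries of 2S6S-HNK, E2+2R6R-HNK and E2+2S6S-HNK above the other 10.

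**Figure D3:**
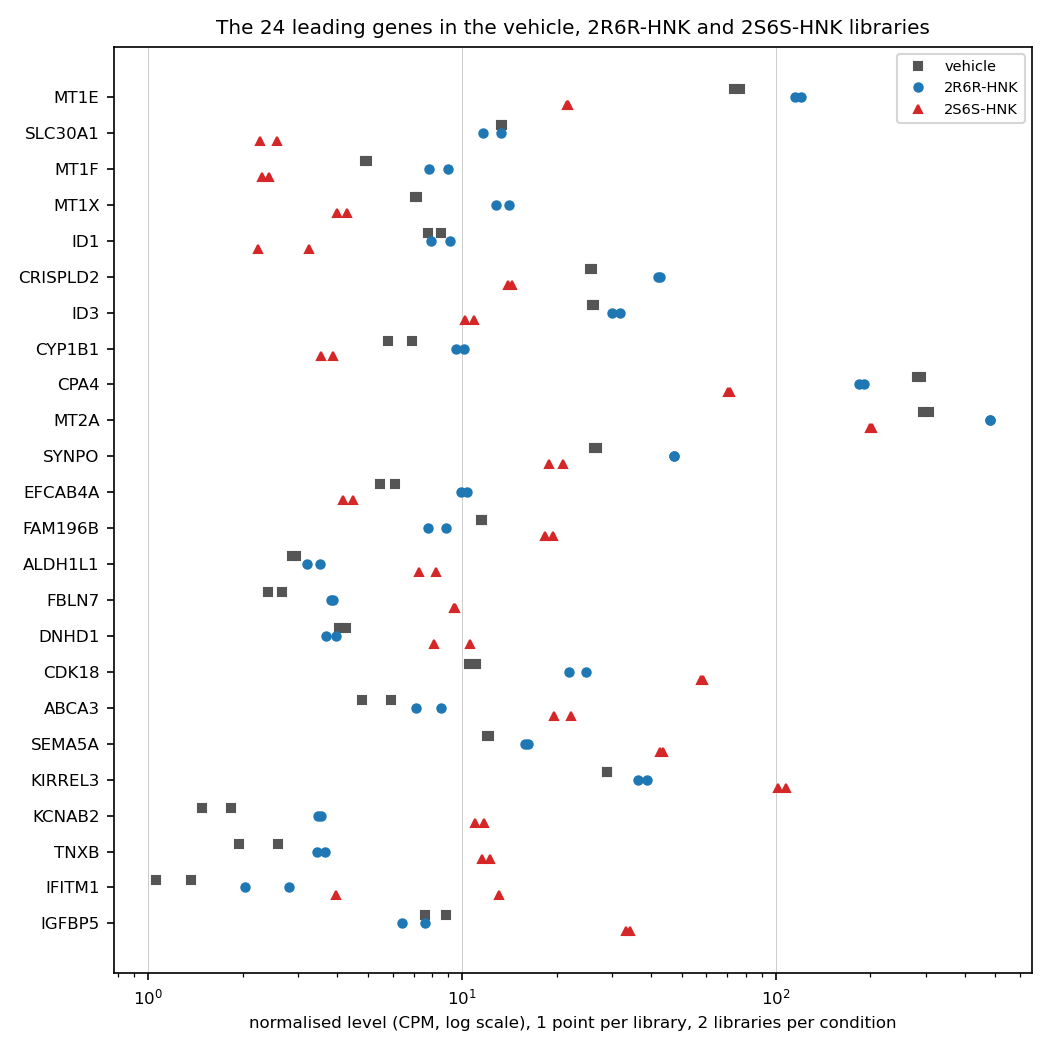
The 12 genes with the largest difference in each direction among called genes of at least 5 CPM, with CPM on a log axis and 1 point per library for vehicle (grey squares), 2R6R-HNK (blue circles) and 2S6S-HNK (red triangles). The blue and red points do not overlap in any row, which the choice of genes required, and the IFITM1 replicates of 2S6S-HNK lie apart at 3.96 and 13.1 CPM.

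The 13 genes that the study followed by PCR, from the JAK-STAT and type I interferon pathways, differed modestly between the enantiomers. Type I interferons signal through JAK kinases and STAT factors to switch on antiviral genes, and SOCS proteins dampen the signal. Of the 13, 6 were higher in 2R6R-HNK, 3 higher in 2S6S-HNK and 4 did not pass, 69.2% passing against 43.5% of all genes, and none was called against 2.53% of all genes. STAT3 was at 152 and 149 CPM under 2R6R-HNK and 189 and 191 CPM under 2S6S-HNK (log2 -0.34, SE 0.029, edgeR adjusted p = 4.51e-14), while its inhibitor SOCS3 was at 64.6 and 63.4 and 50.2 and 50.4 CPM (log2 0.35, SE 0.043). The direction was thus opposite for the factor and its inhibitor. SOCS1 (1.39 and 1.54 against 0.858 and 0.797 CPM, log2 0.82), MX2 (1.22 and 1.43 against 0.712 and 0.712 CPM, log2 0.89), OAS1 (1.58 and 1.63 against 0.931 and 1.14 CPM, log2 0.63), MX1 (log2 0.39) and IRF7 (log2 0.18) were higher in 2R6R-HNK. JAK3 (log2 -0.50) and IRF9 (log2 -0.15) were higher in 2S6S-HNK. OAS1, MX1 and IRF9 did not pass in DESeq2 on all libraries, MX2 and SOCS1 did not in DESeq2 on the 4 libraries, and each of these 5 genes, IRF7 and JAK3 also no longer had an adjusted p under 0.05 when some single library was left out. JAK1 had a log2 difference of -0.04 with a 95% interval of -0.11 to 0.03, and JAK2 one of -0.18 (-0.42 to 0.06). C1R had -0.12 (-0.30 to 0.05), and OAS2, at under 0.5 CPM, 0.22 (-0.83 to 1.27), an interval too wide to exclude a large difference.

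In the wider interferon list, 15 of 47 tested genes were higher in 2R6R-HNK, 6 were higher in 2S6S-HNK and 26 did not pass, 44.7% passing against 43.5% of all genes. The median log2 difference was 0.10. The 2 called members of the 47, IFITM1 and BST2 (mean under 1 CPM, named after its values were seen), were both higher in 2S6S-HNK. Of all genes 2.53% were called, 1.51% higher in 2S6S-HNK, so 2 calls say little about the list. The size of the IFITM1 difference rested on 1 library, as given above. IRF1, a transcription factor of the response, was at 22.8 and 23.2 CPM under 2R6R-HNK and 12.8 and 14.1 CPM under 2S6S-HNK (log2 0.78, SE 0.069), and TRIM22 and STAT2 went the other way at -0.71 and -0.35. Of 32 tested JAK-STAT genes 4 were higher in 2R6R-HNK and 11 in 2S6S-HNK (46.9% passing, median -0.10), the latter including the oncostatin M receptor OSMR (-0.61) and SOCS7 (-0.61). Of 19 genes of the MHC class I list 8 were higher in 2S6S-HNK and 1 was higher in 2R6R-HNK (47.4% passing, median -0.13). HLA-B was at 209 and 214 CPM under 2S6S-HNK and 145 and 141 under 2R6R-HNK (log2 -0.57), whereas NLRC5, the transactivator of these genes, was at 5.26 and 5.04 and 8.16 and 7.43 CPM (log2 0.60). Among 31 tested cytokines and chemokines 6 were higher in 2R6R-HNK, among them LIF (84.2 and 86.1 against 53.1 and 51.7 CPM, log2 0.70) and IL11 (log2 0.61), and 4 were higher in 2S6S-HNK (32.3% passing). Of 15 complement genes, 1 was higher in 2R6R-HNK and 6 in 2S6S-HNK (46.7% passing).

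Of 28 tested targets of NRF2, the factor of the antioxidant response, 17 were higher in 2R6R-HNK, 3 were higher in 2S6S-HNK and 8 did not pass (median 0.22), so that 71.4% passed. Over all genes 43.5% passed, 21% higher in 2R6R-HNK and 22.4% higher in 2S6S-HNK. Genes of at least 5 CPM passed more often, as given above, so this share is a low background for lists of abundant genes. NQO1, a quinone reductase, was at 108 and 112 CPM against 71 and 71.2 CPM (log2 0.63, SE 0.036), and the ferritin chain FTL at 2323 and 2334 CPM against 1686 and 1785 CPM (log2 0.42). Of 40 chaperones 24 were higher in 2R6R-HNK, 7 in 2S6S-HNK and 9 did not pass (77.5% passing, median 0.16). DNAJA1 was at 124 and 121 CPM against 88.2 and 85.3 CPM (log2 0.50), with vehicle above both at 224 and 230 CPM. Of 76 nuclear genes of the respiratory chain 41 were higher in 2R6R-HNK, 2 in 2S6S-HNK and 33 did not pass (56.6% passing), but the differences were small, with a median of 0.10. Of 78 ribosomal protein genes 24 were higher in 2R6R-HNK and 18 in 2S6S-HNK (53.8% passing), around a median of 0.01.

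Of 33 genes of sterol and fatty acid synthesis 21 were higher in 2S6S-HNK, 4 were higher in 2R6R-HNK and 8 did not pass (75.8% passing against 43.5% of all genes, median -0.25). INSIG1, which holds back the sterol response, was at 504 and 495 CPM under 2S6S-HNK, 296 and 293 CPM under 2R6R-HNK and 257 and 257 CPM in vehicle (log2 -0.76, SE 0.024, edgeR adjusted p = 1.01e-30). SREBF1, which encodes the factor driving lipid synthesis, was instead higher in 2R6R-HNK (210 and 208 against 162 and 169 CPM, log2 0.34), as was the sterol reductase TM7SF2 (log2 0.48). Of 34 genes of the ATF4 amino acid response 19 were higher in 2S6S-HNK, 9 in 2R6R-HNK and 6 did not pass (82.4% passing, median -0.15). ASNS, asparagine synthetase, was at 136 and 132 CPM under 2S6S-HNK and 65.3 and 64.8 under 2R6R-HNK (log2 -1.04, SE 0.035). CHAC1, which degrades glutathione, was at 7.3 and 6.63 and 14.5 and 14 CPM (log2 1.03, SE 0.084), and the amino acid exchanger subunits SLC7A5 and SLC3A2 were higher in 2R6R-HNK by 0.62 and 0.57. Members of this list therefore went in both directions. Of 40 glycolysis and hypoxia genes 22 were higher in 2S6S-HNK and 11 in 2R6R-HNK (82.5% passing, median -0.11).

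Of 20 circadian clock genes 11 were higher in 2S6S-HNK, 1 was higher in 2R6R-HNK and 8 did not pass (60% passing against 43.5% of all genes, median -0.22). PER1, a repressor of the clock loop, was at 48.7 and 48.8 CPM under 2S6S-HNK, 29.5 and 27.9 CPM under 2R6R-HNK and 21 and 20.7 CPM in vehicle (log2 -0.76, SE 0.051). PER3 (log2 -0.66) and the clock output factor TEF (log2 -0.76) had the same direction, and HLF (log2 0.85), which did not pass in DESeq2 on the 4 libraries, the other. Of 32 matrix genes 17 were higher in 2S6S-HNK and 10 in 2R6R-HNK (84.4% passing, median -0.22). Thrombospondin THBS1 was at 1710 and 1711 CPM under 2R6R-HNK and 854 and 873 CPM under 2S6S-HNK (log2 0.99, SE 0.020), and COL1A2 at 245 and 244 and 160 and 169 CPM (log2 0.57). COL11A1 had the opposite order, at 76.4 and 78.8 and 165 and 163 CPM (log2 -1.08). The 22 contractile, YAP and TGF-beta genes divided into 9 higher in 2R6R-HNK, such as TGFBI (log2 0.86), ANKRD1 (0.67) and SMAD7 (0.67), and 8 higher in 2S6S-HNK, such as the ligand TGFB2 (-0.46), with 77.3% passing.

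Of 24 glutamate receptor genes only 10 passed the filter on low counts. Of those, 3 were higher in 2S6S-HNK, or 30.0% passing against 43.5% of all genes, which is not above the background, namely GRIN3B (3.32 and 3.14 against 1.72 and 1.49 CPM, log2 -1.0), GRIK4 (log2 -0.61) and GRIN2C (log2 -0.54), with none higher in 2R6R-HNK. GRIN2C did not pass in DESeq2 on the 4 libraries. With 1 library left out, its log2 difference ranged from -0.77 to -0.31 and that of GRIK4 from -0.82 to -0.34. In the list of neurotrophin, synapse and translation genes 9 of 28 were higher in 2S6S-HNK, among them the scaffold DLG4 (32.5 and 38.4 against 22.2 and 22.6 CPM, log2 -0.66), and 4 in 2R6R-HNK, 46.4% passing and so near the share of all genes. The long noncoding RNA MALAT1 was at 95.1 and 95.4 CPM under 2R6R-HNK and 233 and 173 CPM under 2S6S-HNK (log2 -1.09, SE 0.083), with log2 differences of -1.29 to -0.86 when 1 library was left out. It shares 8121 bases with the antisense gene TALAM1. MEG3 also was higher in 2S6S-HNK (log2 -0.63) and DANCR in 2R6R-HNK (log2 0.60). Cell cycle genes passed often in both directions, 27 of 51 higher in 2R6R-HNK and 17 in 2S6S-HNK (86.3% passing), with none called against 2.53% of all genes.

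**Figure D4:**
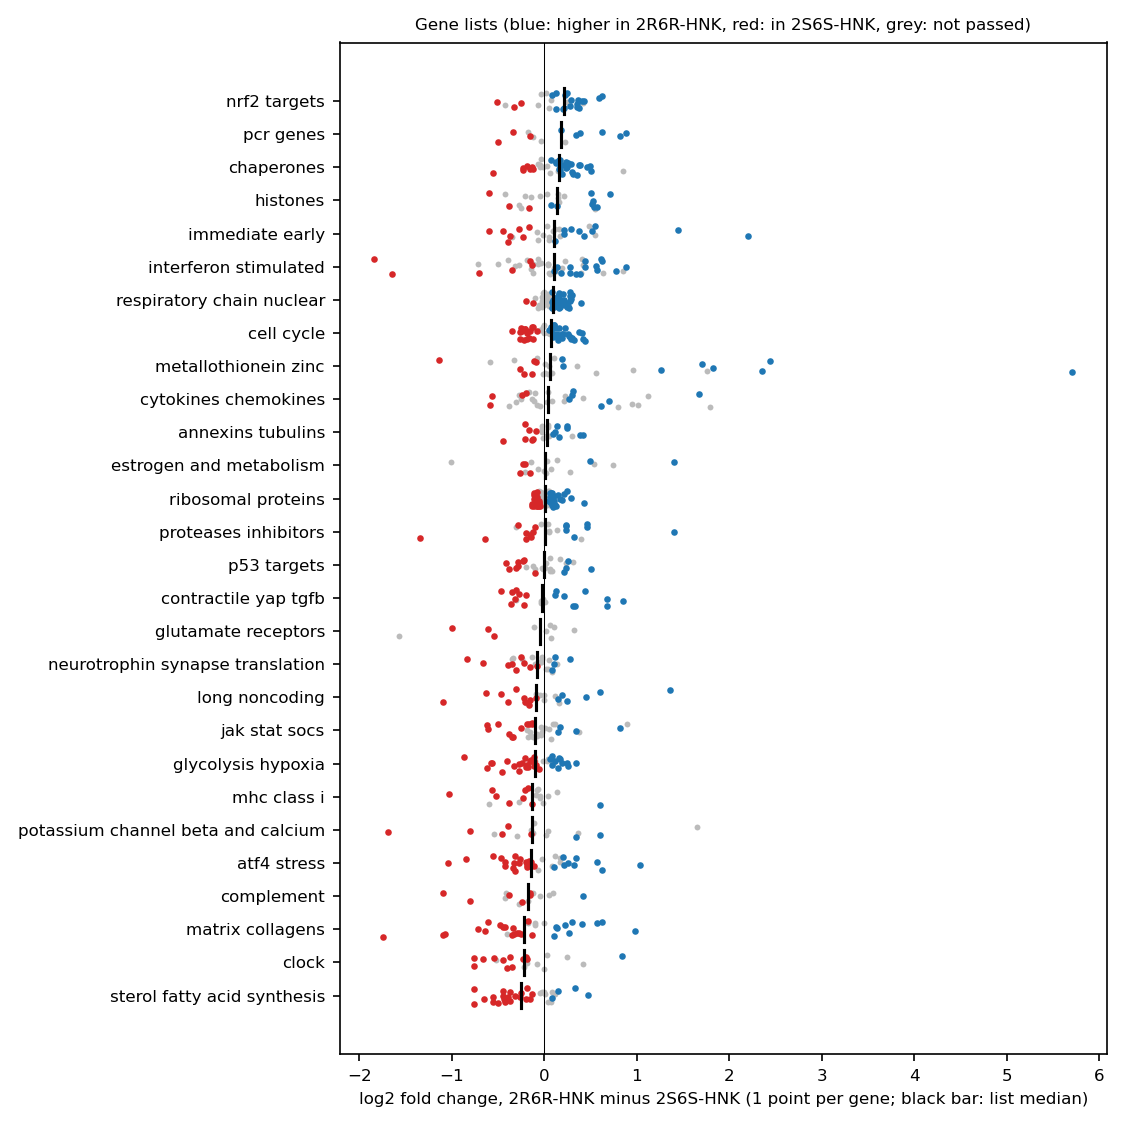
Each row is a gene list ordered by its median (black bar), each point a tested gene, and the horizontal axis is the log2 fold change (2R6R-HNK minus 2S6S-HNK), blue where higher in 2R6R-HNK, red where higher in 2S6S-HNK and grey where the adjusted p was not under 0.05. List medians lie between -0.25 and 0.22, and the called zinc genes stand far outside their list's median of 0.06.

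The same pair of compounds was also given with E2, in 4 other libraries. There 106 of 16004 genes were called (0.662%), 48 higher in E2+2R6R-HNK (0.3%) and 58 higher in E2+2S6S-HNK (0.362%), and 8647 (54%) passed the adjusted p alone, 4652 (29.1%) higher in E2+2R6R-HNK and 3995 (25%) higher in E2+2S6S-HNK. In this comparison the log2 difference followed GC content across 15358 genes (Spearman 0.673), and 41 of these genes were called after the GC and length correction. The other tested genes had no GC value and were left out of that fit, so the 106 and 41 calls come from different sets of genes. DESeq2 gave 46 calls on all libraries and 18 on the groups compared, and the filter of at least 10 counts gave 35. The part of GC content in the result was not tested beyond that. Of the 163 genes higher in 2R6R-HNK without E2, 23 passed in the same direction with E2, 7 passed in the opposite direction and 133 did not pass, and their median log2 difference was 1.38 without E2 and 0.16 with it. Of the 242 higher in 2S6S-HNK, 14 passed in the same direction, 22 in the opposite one and 206 did not pass, with medians of -1.30 and 0.03. Most of these genes were low. Among the 27 higher in 2R6R-HNK with a mean of at least 5 CPM, 16 passed in the same direction and 3 in the opposite one. Among the 35 higher in 2S6S-HNK at that level, the numbers were 6 and 14. Of all 16004 genes, 4587 passed with E2 in the direction they had without it and 4060 in the opposite one. Since the first of each pair of medians comes from the values that chose the genes, the contrast between them is a description.

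The genes called with and without E2 in the same direction were 10, named here after their values were seen. Those higher under 2R6R-HNK were MT1E, MT1F, MT1X, MT2A, SLC30A1 and ATOH8, and those higher under 2S6S-HNK were SLC39A10, UNC5CL, LINC00670 and MIR573. The last 3 were under 0.4 CPM and ATOH8 under 1 CPM, so all 6 with a mean of at least 5 CPM were zinc genes. A further 2 genes, ADAM32 and MDH1B, both under 1 CPM, were called with and without E2 in opposite directions, higher in 2R6R-HNK without E2. With E2, MT1E was at 49.4 and 50.8 CPM under E2+2R6R-HNK and 19.1 and 17.8 CPM under E2+2S6S-HNK (log2 1.44, SE 0.046, edgeR adjusted p = 2.73e-29). SLC30A1 was at 6.34 and 6.9 and 2.32 and 2.11 CPM (log2 1.57), and SLC39A10 at 21.9 and 21.3 and 49.8 and 52 CPM (log2 -1.23). The differences with E2 were 1.41 for MT1X, 1.1 for MT2A and 1.07 for MT1F.

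Whether the enantiomer difference itself differed with E2 was tested as an interaction, the log2 difference with E2 minus that without. By this test 526 genes were called (3.29%), 345 with a higher value with E2 (2.16%) and 181 with a lower one (1.13%), against 353 with the GC and length correction and 369 with DESeq2 on the groups compared, and 7558 (47.2%) passed the adjusted p. The interaction was -0.10 for SLC39A10 (95% interval -0.26 to 0.06, edgeR adjusted p = 0.313) and -0.29 for MT1X (-0.60 to 0.02, adjusted p = 0.119), neither of which passed. For MT2A it was -0.16 (adjusted p = 0.000703), for MT1F -0.76, for SLC30A1 -0.79 and for MT1E -1.0, so these 4 differences were smaller with E2 and kept their direction. IGFBP5 was different, at 35.1 and 35.4 CPM in E2+2R6R-HNK and 33.1 and 30.2 CPM in E2+2S6S-HNK, levels like those of 2S6S-HNK alone, with a difference of 0.15 (edgeR adjusted p = 0.067) and an interaction of 2.43 (adjusted p = 9.10e-24). THBS1 had a difference of 0.99 without E2 and of 0.01 with it (interaction -0.98, adjusted p = 1.23e-31). CPA4 and CYP1B1 passed in the opposite direction with E2, at -0.20 and -0.44, with interactions of -1.61 and -1.84.

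The gene lists also had other medians with E2, given here without the GC correction. The differences with E2 followed GC content as described above, and its part in these medians was not tested. The median of the sterol list was -0.25 without E2 and 0.13 with E2, that of the clock list -0.22 and 0.23, and that of the chaperones 0.16 and -0.18. The interaction passed for 26 of 33 sterol genes, 12 of 20 clock genes and 31 of 40 chaperones, against 47.2% of all genes. PER1 had an interaction of 1.02 (edgeR adjusted p = 3.86e-17), and DNAJA1 had one of -0.98 (adjusted p = 1.12e-23), with 83.2 and 81.3 CPM in E2+2R6R-HNK and 114 and 115 CPM in E2+2S6S-HNK. Some differences stayed close, such as SOCS3 at 0.35 and 0.36, FTL at 0.42 and 0.38, and SREBF1 at 0.34 and 0.31, with interactions of 0.01 (-0.11 to 0.13), -0.05 (-0.10 to 0.01) and -0.02 (-0.11 to 0.07). STAT3 had -0.34 without E2 and 0.28 with it (interaction 0.61, adjusted p = 5.63e-18).

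**Figure D5:**
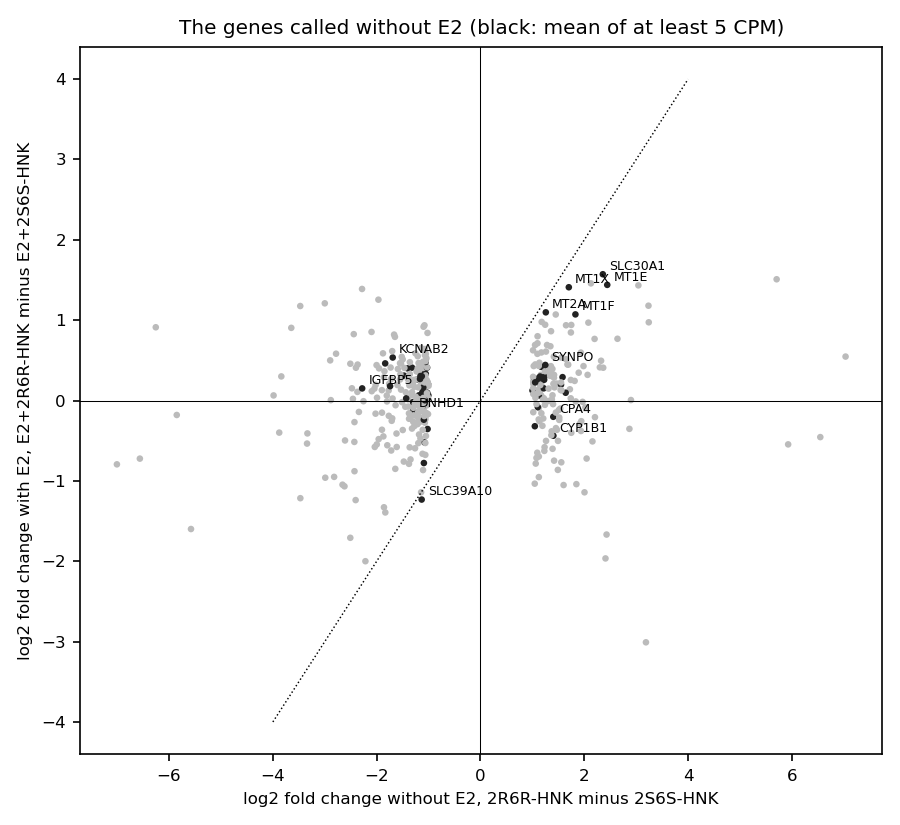
The 405 genes called without E2, with their log2 fold change without E2 on the horizontal axis and with E2 (E2+2R6R-HNK minus E2+2S6S-HNK) on the vertical axis. The dotted line marks equal values, black points have a mean of at least 5 CPM, and the 5 zinc genes at the upper right and SLC39A10 at the lower left lie beyond 1 log2 unit on both axes in the same direction. ADAM32 and MDH1B were called on both axes in opposite directions.

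Against vehicle, which both compounds share as control, 2R6R-HNK gave 600 called genes (3.75%) and 2S6S-HNK 1453 (9.08%), and 66.6% and 67.9% of genes passed the adjusted p alone. With the GC and length correction the calls were 209 and 699, and DESeq2 on the groups compared gave 376 for 2R6R-HNK. Among the 242 genes higher in 2S6S-HNK, 102 passed the adjusted p against vehicle under 2S6S-HNK and not under 2R6R-HNK, and 32 passed under 2R6R-HNK and not under 2S6S-HNK. Among the 163 higher in 2R6R-HNK the numbers were 60 and 22. Passing under one compound and not the other is no test of a difference, and the difference itself was what chose these genes. The matching share of all genes is not given here, so these counts are a description only.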

How the data were processed

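RNA-seq was performed on total RNA of HMC3 cells, with amplified cDNA libraries (NuGEN Ovation) and paired reads. The authors aligned to hg19 and deposited raw counts per gene from featureCounts. The submitters' processing notes name TopHat2 2.0.14, Bowtie2 2.2.6 and featureCounts 1.4.6, while the paper's methods give other TopHat and Bowtie versions, and gene models from UCSC. Strandedness is not given in the sources used here. Separate cultures for the 2 libraries per condition are not stated either, so p-values measure the spread between these libraries, which may be technical. Libraries held 55300614 to 81646165 counts.

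Statistics were computed with edgeR 4.0.16 and DESeq2 1.42.0 under R 4.3.3. filterByExpr kept 16004 of 25370 genes, TMM scaled the libraries, and CPM are TMM-scaled. A single quasi-likelihood fit to all 16 libraries (8 residual degrees of freedom) gave every comparison, since an exact permutation test cannot pass 0.05 for a gene at this size. P-values were adjusted by Benjamini-Hochberg over all genes tested, and 1 pair of compounds was compared, without and with E2. Genes were called at an adjusted p under 0.05 with at least a log2 difference of 1 in size. Log2 differences are 2R6R-HNK minus 2S6S-HNK. GENCODE models on GRCh37 gave positions, exon overlaps and GC content (21539 genes matched by symbol, 1498 by an older one), and RefSeq promoters were found for 136 of 181 named genes. The GC and length correction was a loess offset (span 0.5) over the 15358 genes with a GC value, and the other tested genes were left out of that fit.

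The members of the comparison and the gene lists were chosen with earlier results of these data known. Named genes were the 12 largest called differences per direction averaging 5 CPM or more without overlap, up to 3 genes per list and direction past an adjusted p of 0.05 with at least 1 CPM, the 13 PCR genes, and the 6 largest called interactions. Further lists (p53, immediate early, histone, protease, annexin, estrogen and channel genes) are given in the closing section. In data simulated for the comparison without E2 over 16004 genes, 90% of genes changed by log2 1.5 and 96% of those changed by 2 were called, with 0 false calls. The simulation took its spread from the same fit, so it cannot give the rate of false calls in the real libraries. Alternatives were DESeq2, edgeR on the groups compared, other filters, RLE and upper-quartile scaling, the replicate block, the GC correction, halved counts and each library left out. Depth limits genes of few counts, where intervals cover counting and replicate error only.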

Additional observations from a re-analysis of the deposited data

Results flagged for a closer look

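The 6 genes that follow stood out because the difference between the enantiomers changed with E2 by the interaction test of edgeR, the largest such values among called genes of at least 5 CPM. The interaction is the log2 difference (2R6R-HNK minus 2S6S-HNK) with E2 minus that without. It was 2.43 for IGFBP5 (SE 0.11), with -2.28 without E2 and 0.15 with it, and 2.23 for KCNAB2 (-1.69 and 0.54). It was 1.92 for TNXB (-1.74 and 0.18) and 1.81 for ABCA3 (-1.41 and 0.40). For CYP1B1 it was -1.84, from 1.4 to -0.44. For IFITM1 it was 2.3, and 1.19 without replicate 2 of 2S6S-HNK, so its size rests on that library, and its E2+2R6R-HNK (2.75 and 3.16 CPM) and E2+2S6S-HNK libraries (2.11 and 2.18 CPM) lay below both 2S6S-HNK libraries. In IGFBP5, KCNAB2, TNXB and ABCA3 the E2+2R6R-HNK libraries were at the level of 2S6S-HNK or above it, as with IGFBP5 at 35.1 and 35.4 CPM against 34.2 and 33.3 CPM. In CYP1B1 they were below both 2S6S-HNK libraries, at 3.31 and 3.11 CPM against 3.56 and 3.87 CPM. For these 5 genes, the compound, E2 and any feature shared by the libraries of 2S6S-HNK and both E2 combinations cannot be told apart.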

How the results depend on the processing

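The 405 calls without E2 numbered 200 (86 higher in 2R6R-HNK, 114 lower) with DESeq2 on the 4 libraries and 252 (106 and 146) with at least 10 counts in every library, and were within 1.5 times under the other settings, with no shared call changing sign. Leaving out 1 library gave 357 to 380 calls (136 to 162 higher, 206 to 239 lower), of which 251 to 266 were among the 405, and 5659 to 5962 genes past the adjusted p. With E2 the 106 calls became 46 with DESeq2 on all libraries, 18 with DESeq2 on the groups compared, 35 with at least 10 counts, 41 with the GC and length correction and 94 to 135 with 1 library left out. The interaction gave 526 calls, 353 with the GC correction, 351 with the block and the GC correction, 369 with DESeq2 on the groups compared and 493 to 566 with 1 library left out. Against vehicle, 2R6R-HNK gave 376 calls with DESeq2 on the groups compared, 209 with the GC correction and 594 to 671 with 1 library left out, and 2S6S-HNK gave 699 with the GC correction and 1330 to 1550. The replicate block gave 401 calls without E2 (398 shared). With the block and the GC correction together the calls were 42 with E2, 205 for 2R6R-HNK and 690 for 2S6S-HNK against vehicle. Replicate deviations correlated at -0.025 between the compounds, so the numbers do not pair the libraries. JAK1 changed sign with the GC correction, with (0.0341) and without (0.0338) the block, and OAS2 ranged from -0.20 to 0.86 with 1 library left out, neither past the threshold. Of 181 named genes 7 no longer passed with DESeq2 on all libraries, 25 of 180 with DESeq2 on the groups compared, and 13 to 19 with 1 library left out. The cause of these losses was not tested.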

Other observations

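Further lists gave these counts, to be read against the 43.5% of all genes that passed. That share was higher among genes of at least 5 CPM, and the lists were not matched for level. Of 26 tested p53 targets 4 were higher in 2R6R-HNK, such as TP53I3 (log2 0.50), and 8 in 2S6S-HNK, such as CCNG1 (-0.41), 46.2% passing. Of 30 immediate early genes 10 and 7 passed (56.7%), with JUNB higher in 2R6R-HNK (0.55) and FOSB, NR4A1 and EGR1 higher in 2S6S-HNK (-0.60, -0.44 and -0.40). Of 23 tested histone genes 8 were higher in 2R6R-HNK, such as H2AFX (0.57) and H2AFZ (0.53), and 3 in 2S6S-HNK, which include the linker histones HIST1H1E (-0.59) and HIST1H1C (-0.38), 47.8% passing. Of 24 proteases and inhibitors 7 and 9 passed (66.7%), of 24 annexins, S100 proteins and tubulins 8 and 7 (62.5%), of 18 estrogen-related genes 2 and 4 (33.3%), and of 16 potassium and calcium channel genes 2 and 5 (43.8%), where all 3 KCNAB beta subunits were higher in 2S6S-HNK (KCNAB2 -1.69, KCNAB1 -0.80, KCNAB3 -0.39). Of 23 tested long noncoding RNAs 6 and 10 passed (69.6%). The p53, histone, estrogen-related and channel lists were near or below the share of all genes. FOSB and HIST1H1E did not pass in DESeq2 on the 4 libraries. With 1 library left out, the log2 difference of HIST1H1E ranged from -0.86 to -0.28.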
